A study of Mus musculus with 79 samples.

Results

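The 9 transcripts followed here belong to the mouse cell cycle: the mitotic kinase gene Aurka, its activator Tpx2, the replication helicase genes Mcm2, Mcm4, Mcm5, Mcm6 and Mcm7, the G1 cyclin gene Ccnd1 and the CDK inhibitor gene Cdkn1a. They were chosen by symbol, and all 9 were present in both sets of tables, among 14253 genes in the RORA set, 12952 in the PER2 set and 11425 genes shared by both. Aurka was chosen with its values in the RORA set in view, and Tpx2 and Mcm6 with theirs in the PER2 set, so those values are described here without a test. The choice by name had no threshold.

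The samples were muscle of RORA muscle-specific knockout mice (RORA MKO, 18 libraries) against RORA controls (RORA CTRL, 18 libraries), and of PER2 muscle-specific knockout mice (PER2 MKO, 24 libraries) against PER2 controls (PER2 CTRL, 19 libraries). RORA is a nuclear receptor and PER2 a repressor of the circadian clock. Tissue was taken every 4 h through the day, from zeitgeber time (ZT, counted in hours from lights on) 0 to ZT20, with 3 to 4 libraries for each genotype and ZT. Controls of both sets carry the genotype WT in the labels. The labels give the tissue only as muscle and state neither the Cre driver nor the age of the mice. Polyadenylated RNA was sequenced from bulk tissue, so that fewer cells of a type and less RNA per cell cannot be told apart. The values deposited are the authors' comparisons at each ZT. Per-library values and depths were not used here, so the errors below are those of the authors' fits or the spread over the 6 ZT. Each ZT had its own mice, and the 2 sets share no controls. All 15 muscle fibre markers were present in both sets. Counted by an adjusted p under 0.05 for the mean over the 6 ZT, 3 rose and 6 fell in RORA MKO muscle. Over all genes 38.2% passed there. The markers' RORA means ran from -0.24 (Actn3) to 0.17 (Mylpf), with a median of -0.01. In the PER2 set 2 were negative (median -0.03), where 21.6% of all genes passed. The part of muscle fibres in the values below was not tested. The targeted gene Rora had a mean log2 fold change of -1.78 ± 0.15 (SD over 6 ZT) in the RORA set, MKO over CTRL, in the authors' deposited tables, and was called at all 6 ZT. The targeted gene Per2 had 0.37 ± 0.29 in the authors' deposited tables of the PER2 set, positive at 5 of 6 ZT and called at 1. The sources used here do not say which way round the PER2 ratio was taken, so PER2 values are given only by their deposited sign.

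Aurora A, the product of Aurka, is a kinase that builds the mitotic spindle. TPX2 binds it, switches it on and brings it to spindle microtubules. The MCM2 to MCM7 proteins form the ring-shaped helicase that is loaded on origins before DNA replication and unwinds DNA ahead of the fork. Cyclin D1 (Ccnd1) drives CDK4 and CDK6 through G1 towards E2F target genes, to which the Mcm genes belong. The protein p21 (Cdkn1a) inhibits CDKs and is a classic p53 target. Adult muscle fibres are post-mitotic, and cycling cells in muscle are mostly satellite, immune, endothelial and stromal cells.

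The 250 bases before the transcription start are shown for Aurka and for the helicase genes with an entry, since helicase genes are E2F targets and the knockouts remove a DNA-binding receptor and a clock factor. RefSeq promoters of GRCm38.p6 were matched by symbol for 6 of the 9 members, with 2 windows each for Mcm7 and Cdkn1a; for Mcm7 the one farther upstream is shown. The lines run 5′ to 3′ on the gene's own strand. Capitals mark E2F words, CCAAT and AGGTCA, on either strand.
Aurka, chr2:172370571-172370820, minus strand: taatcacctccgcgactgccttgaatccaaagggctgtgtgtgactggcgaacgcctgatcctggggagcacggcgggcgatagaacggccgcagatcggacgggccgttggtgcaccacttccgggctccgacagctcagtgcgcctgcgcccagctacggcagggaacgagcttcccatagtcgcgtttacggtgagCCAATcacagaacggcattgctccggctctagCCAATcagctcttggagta
Mcm2, chr6:88898781-88899030, minus strand: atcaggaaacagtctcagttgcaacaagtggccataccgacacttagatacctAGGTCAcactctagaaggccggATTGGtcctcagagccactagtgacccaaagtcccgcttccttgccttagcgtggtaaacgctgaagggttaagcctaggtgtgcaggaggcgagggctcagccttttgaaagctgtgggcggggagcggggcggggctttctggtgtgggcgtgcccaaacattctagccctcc
Mcm6, chr1:128359706-128359955, minus strand: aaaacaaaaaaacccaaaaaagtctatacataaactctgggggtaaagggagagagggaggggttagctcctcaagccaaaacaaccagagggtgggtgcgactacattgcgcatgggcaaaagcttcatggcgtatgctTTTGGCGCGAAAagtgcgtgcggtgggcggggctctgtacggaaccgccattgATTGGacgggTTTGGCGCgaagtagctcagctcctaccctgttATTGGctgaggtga
Mcm5, chr8:75109259-75109508, plus strand: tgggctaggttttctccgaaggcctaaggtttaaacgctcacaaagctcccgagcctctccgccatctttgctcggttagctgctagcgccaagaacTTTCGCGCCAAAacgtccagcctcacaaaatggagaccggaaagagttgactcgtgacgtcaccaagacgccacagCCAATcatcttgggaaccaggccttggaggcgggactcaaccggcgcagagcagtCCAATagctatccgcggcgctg
Mcm7, chr5:138171884-138172133, minus strand: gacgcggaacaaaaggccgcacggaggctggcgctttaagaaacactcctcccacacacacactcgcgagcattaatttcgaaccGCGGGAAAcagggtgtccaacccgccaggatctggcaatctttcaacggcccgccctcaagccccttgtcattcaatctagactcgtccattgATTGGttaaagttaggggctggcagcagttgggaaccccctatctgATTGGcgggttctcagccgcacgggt
The E2F words searched were TTTCCCGC, TTTCGCGC, TTTGCCGC and TTTGGCGC on both strands, and 1.86% of 32851 windows of the same length held at least 1. The Mcm6 window held 3 matches, starting 110, 106 and 47 bases before the start, and the first 2 of these overlap. The Mcm5 window held 2 overlapping matches, 153 and 149 bases before the start, and the Mcm7 window shown 1, at 165 bases. Aurka, Mcm2, the other Mcm7 window and both Cdkn1a windows held no E2F word. CCAAT, found in 33.8% of windows, was matched 2 times each in the windows shown for Aurka (51 and 19 bases before the start), Mcm5, Mcm6 and Mcm7, and 1 time each in Mcm2 and the other Mcm7 window. The word AGGTCA, the core of the site RORA binds, was in 14.0% of windows and, among the windows of the 6 members, in that of Mcm2 alone, 197 bases before the start. The CHR words TTTGAA and TTCGAA, found in 17.1% of windows, were matched 1 time each in Mcm2 and the Mcm7 window shown. The clock E-box CACGTG, found in 6.02% of windows, was in none of the members' windows. A match is a string of letters, not a shown binding site, and no match says only that these letters are absent from the window.

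Aurka was higher in RORA MKO than in RORA CTRL muscle at every ZT. Its log2 fold changes in the authors' deposited tables were 1.76, 1.75, 1.62, 2.08, 1.68 and 1.82 from ZT0 to ZT20, with errors of 0.0702 to 0.0880. The mean was 1.79 ± 0.16 (SD over 6 ZT) on the log2 scale, or 3.45-fold, with the highest value at ZT12 and the lowest at ZT8. Its mean normalized count in the authors' deposited tables was 206. That is 108 per kilobase of transcript, at the 76.2 percentile of the RORA set on that scale. A mean of at least 1 in size, in either direction, was reached by 1.26% of genes in the RORA set.

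In the PER2 set Aurka was called at no ZT, as were 84.7% of genes. The authors' deposited tables gave it log2 fold changes of -0.39, -0.16, 0.18, -0.21, -0.29 and -0.44. The mean was -0.22 ± 0.22 (SD over 6 ZT), and its adjusted p by Stouffer's sum over the 6 ZT was 0.223. Each of these values carried an error of 0.295 to 0.323, which was larger than in 98.3% of the 1143 genes of like level. The weighted mean of -0.22 ± 0.13 (SE) therefore does not show that Aurka stayed level.

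Tpx2 fell in RORA MKO muscle at every ZT, opposite in direction to its partner Aurka. Log2 fold changes in the authors' deposited tables were -1.09, -0.71, -0.96, -0.53, -0.82 and -1.05, with errors of 0.118 to 0.149. The gene was called at all 6 ZT, as were 8.65% of genes. The mean was -0.86 ± 0.21 (SD over 6 ZT), 0.552 of the control level, with an adjusted p of 4.33e-59 for the weighted mean. By limma, which uses the spread over the 6 ZT, the adjusted p was 0.000112. The weighted mean passed for 38.2% of genes, 18.9% positive and 19.3% negative. The smallest decrease was at ZT12 and the largest at ZT0. These differences between ZT did not pass the test of heterogeneity over the 6 ZT (Cochran's Q, adjusted p = 0.167). Scored on z values instead, which do not carry the shrinkage of the deposited fold changes, the adjusted p was 0.0461.

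In the PER2 set Tpx2 had positive deposited log2 fold changes throughout. They were 1.13, 1.92, 1.52, 1.92, 1.08 and 1.06 in the authors' deposited tables, with errors of 0.258 to 0.276. The values at ZT4 and ZT12 were the highest, a description with no test since Tpx2 was chosen on this set. At the same 2 ZT the PER2 fold changes of all genes followed transcript length (Spearman 0.52 and 0.44 across genes) and the erythroid marker median was at its lowest (-1.30 and -0.98). With a length and GC trend removed Tpx2 was at 1.80 and 1.83 there. Tpx2 was called at all 6 ZT there, as were 0.34% of genes, and its mean was 1.44 ± 0.41 (SD over 6 ZT). It was therefore called in all 12 comparisons, as were 21 of the 11425 shared genes, and 19 of these, Tpx2 among them, had opposite deposited signs in the 2 sets. If the PER2 ratio had been taken as CTRL over MKO, those 19 would have the same sign in both knockouts. Both Aurka and Tpx2 lie on chromosome 2.

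**Figure D1:**
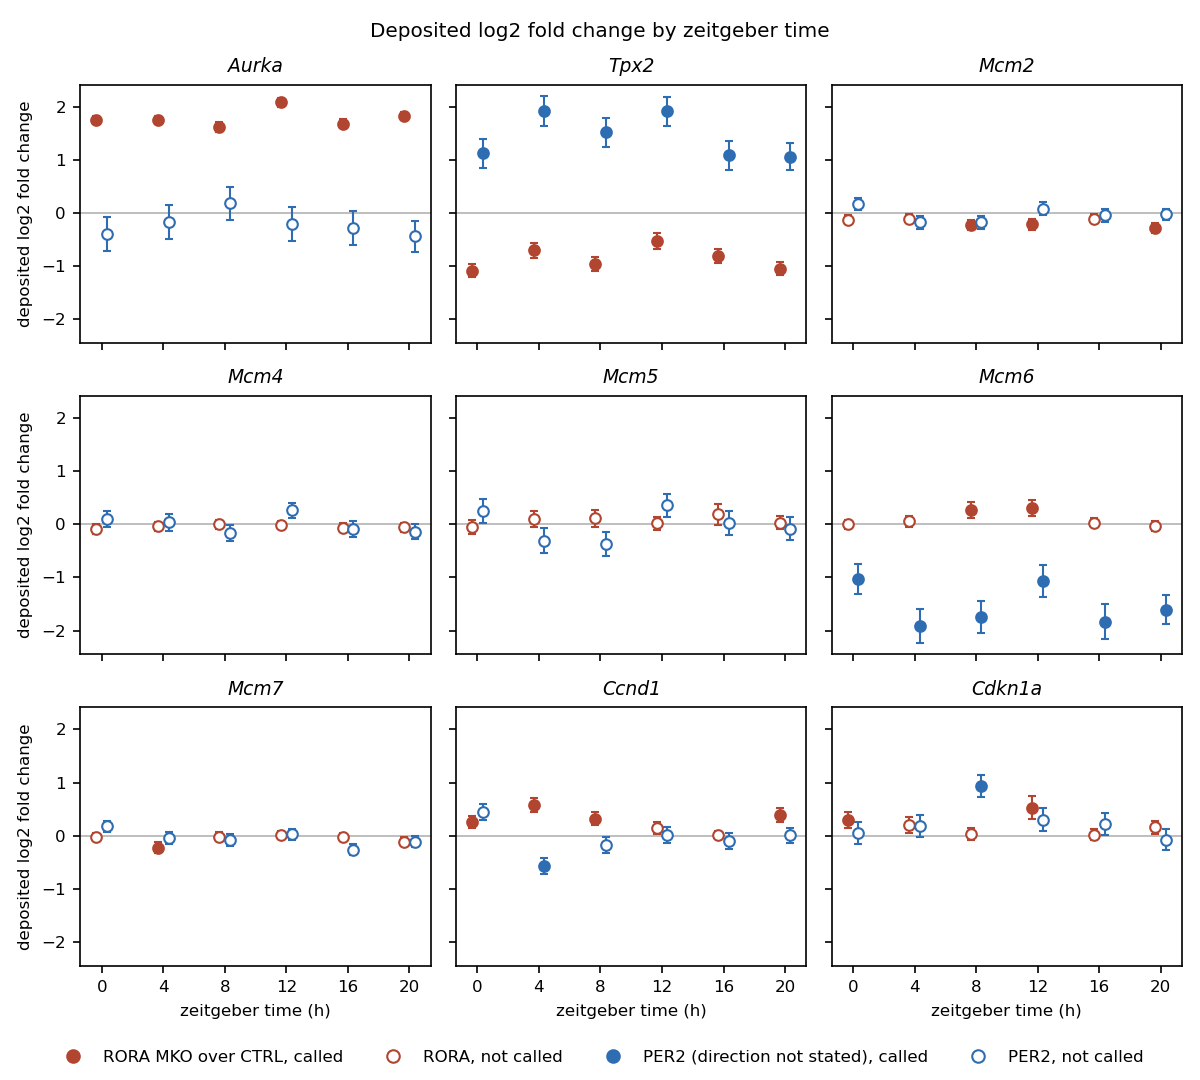
Log2 fold change of each of the 9 genes against ZT in hours, from the authors' deposited tables, with bars of 1 error, for the RORA set (MKO over CTRL) and the PER2 set (direction of the ratio not stated). Aurka sits between 1.62 and 2.08 at the 6 ZT of the RORA set, Tpx2 is below 0 there and between 1.06 and 1.92 in the PER2 set, and Mcm6 is between -1.91 and -1.03 in the PER2 set.

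Of the helicase genes, Mcm6 alone was chosen with its values in the PER2 set in view, so its distance from the rest there is not a result. Its log2 fold changes there were -1.03, -1.91, -1.74, -1.07, -1.83 and -1.61 in the authors' deposited tables, with errors of 0.273 to 0.325. The calls spanned all 6 ZT, with the 2 smallest sizes at ZT0 and ZT12. The mean was -1.53 ± 0.39 (SD over 6 ZT). Mcm6 was a low transcript in that set, at 1.27 CPM (reads scaled to library size), or 0.292 per kilobase, the 4.83 percentile. For the RORA set the authors' deposited tables gave Mcm6 0.00, 0.06, 0.27, 0.31, 0.03 and -0.03. It was called at ZT8 (deposited adjusted p = 0.0186) and ZT12 (0.00594), where 27.8% and 22.1% of genes were called. Its weighted mean over the 6 ZT did not pass (adjusted p = 0.315), while Stouffer's sum of the deposited p-values did (adjusted p = 0.00698), with a plain mean of 0.11 ± 0.15. Stouffer's sum was passed by 7519 of the 14253 genes of the RORA set.

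Mcm2 fell slightly in RORA MKO muscle. Its log2 fold changes were -0.13, -0.11, -0.23, -0.22, -0.11 and -0.28 in the authors' deposited tables, all below 0. Calls were made at ZT8, ZT12 and ZT20, with deposited adjusted p-values of 0.00693, 0.0116 and 0.000423. The mean was -0.18 ± 0.07, a decrease to 0.883 of the control level (adjusted p = 4.76e-06 for the weighted mean and 0.00360 by limma). Mcm2 in the PER2 set gave 0.17, -0.18, -0.18, 0.08, -0.05 and -0.03 in the authors' deposited tables, on both sides of 0 and never called. The mean was -0.03 ± 0.14 (Stouffer adjusted p = 0.706).

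Mcm4, Mcm5 and Mcm7 had mean values of at most 0.07 in size in either set, and none of the 3 passed the mean test in either. For Mcm4 the authors' deposited tables ranged over the 6 ZT between -0.09 and -0.00 in the RORA set (mean -0.04 ± 0.03, adjusted p = 0.423) and between -0.17 and 0.26 in the PER2 set (mean 0.00 ± 0.16, adjusted p = 0.996). Mcm4 and Mcm5 were called in none of the 12 comparisons. For Mcm5 the authors' deposited tables lay between -0.05 and 0.19 in the RORA set (mean 0.07 ± 0.08, adjusted p = 0.641) and between -0.37 and 0.36 in the PER2 set (mean -0.02 ± 0.29, adjusted p = 0.906). Mcm5 was the lowest of the 9 in both sets, at a mean normalized count of 11.2 in the RORA set and 0.961 CPM in the PER2 set. Mcm7 was called at ZT4 of the RORA set, at -0.22 in the authors' deposited tables (deposited adjusted p = 0.0156), where 29.0% of genes were called. At the other 5 ZT its size there was 0.11 or less, and the mean was -0.06 ± 0.09 (adjusted p = 0.287). Mcm7 in the PER2 set lay between -0.26 and 0.17 in the authors' deposited tables (mean -0.05 ± 0.15, adjusted p = 0.463). Mcm7 overlaps Cops6 and Ap4m1 on the opposite strand, both also in the tables. Whether the counting used strand is not given in the sources used here, so its values are uncertain.

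Ccnd1 rose in RORA MKO muscle. The authors' deposited tables gave log2 fold changes of 0.26, 0.58, 0.32, 0.15, 0.01 and 0.39. Calls fell at ZT 0, 4, 8 and 20, with the highest value at ZT4 and the lowest at ZT16. Its plain mean was 0.29 ± 0.20, or 1.22-fold. The adjusted p for the weighted mean of 0.23 was 1.90e-06, in a test that does not use the spread over ZT. By limma, which does, it was 0.0153. The 6 values differed by more than their errors (Cochran's Q, adjusted p = 0.0419), a test that 11.0% of genes passed, but on z values the adjusted p was 0.0590. Its PER2 values in the authors' deposited tables were 0.45, -0.57, -0.17, 0.01, -0.10 and 0.01. Only ZT4 was called there (deposited adjusted p = 0.00672, against 12.2% of genes), and ZT0 had the opposite sign with a deposited adjusted p of 0.0730. Over the 6 ZT of the PER2 set neither the mean of -0.06 ± 0.33 (adjusted p = 0.556) nor the heterogeneity (adjusted p = 0.154) passed. With the length and GC trend removed Ccnd1 was at -0.61 at ZT4. Ccnd1 overlaps LTO1 on the other strand, which is in the RORA tables.

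Cdkn1a had a positive mean in both sets. Its values did not pass the test of heterogeneity over the 6 ZT in either set. Cochran's Q gave an adjusted p of 0.645 in the RORA set and 0.498 in the PER2 set. Its RORA log2 fold changes were 0.29, 0.20, 0.04, 0.53, 0.02 and 0.15 in the authors' deposited tables. Those at ZT0 (deposited adjusted p = 0.00887, against 28.1% of genes) and ZT12 (0.000862) were called. The mean of 0.21 ± 0.19 passed (adjusted p = 0.0294), but leaving out ZT0, ZT4, ZT12 or ZT20 took the adjusted p to 0.109, 0.0698, 0.105 and 0.0730. Its PER2 values in the authors' deposited tables were 0.05, 0.18, 0.94, 0.30, 0.21 and -0.07. The value at ZT8 was the highest and the only call (deposited adjusted p = 0.00139, against 1.78% of genes). The mean was 0.27 ± 0.35 (Stouffer adjusted p = 0.0124), and 0.13 without ZT8 (adjusted p = 0.353).

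Counted by ZT from ZT0 to ZT20, 4, 4, 5, 5, 2 and 4 of the 9 genes were called in the RORA set, where 28.1%, 29.0%, 27.8%, 22.1%, 20.7% and 32.2% of all genes were called. The PER2 counts were 2, 3, 3, 2, 2 and 2, against 2.7%, 12.2%, 1.78%, 3.34%, 0.811% and 1.52% of all genes. At least 1 call was made for 7 of the 9 in the RORA set (58.1% of all genes) and 4 of the 9 in the PER2 set (15.3% of all genes). In the RORA set 2 of the 9, Mcm4 and Mcm5, had no call (41.9% of all genes). Aurka and Tpx2 make up 2 of each RORA count, and Tpx2 and Mcm6 make up 2 of each PER2 count. Since Aurka, Tpx2 and Mcm6 were chosen for such values, nothing is read from these counts.

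The knockouts were compared directly for the 6 members not chosen for their mean in either set, as the weighted RORA mean minus the weighted PER2 mean, on the log2 scale. The RORA fold changes and errors are shrunken and the PER2 errors were derived, so the 2 means are unlike measures. Weighted RORA means were 0.13 for Cdkn1a, 0.23 for Ccnd1 and -0.17 for Mcm2, against plain means of 0.21, 0.29 and -0.18. The p-values and intervals below do not allow for this. Of all shared genes 40.0% passed this test as deposited, 19.2% with the PER2 sign turned and 13.3% under both readings. Mcm2 was lower in the RORA set by both readings, by a difference of -0.14 (95% interval -0.26 to -0.02, adjusted p = 0.0463) as deposited and -0.20 (adjusted p = 0.00580) with the sign turned, though limma on the plain means did not call it as deposited (-0.15, adjusted p = 0.0844). For Ccnd1 the difference was 0.28 (0.13 to 0.43, adjusted p = 0.000969) as deposited and 0.17 (adjusted p = 0.0901) with the sign turned, and limma did not call it either (0.35, adjusted p = 0.0700). Cdkn1a went the other way about, with -0.12 (-0.32 to 0.07, adjusted p = 0.340) as deposited and 0.39 (adjusted p = 0.000883) with the sign turned. No difference was detectable for Mcm4 at -0.04 (-0.17 to 0.10, adjusted p = 0.707). Mcm5 had 0.06 (-0.15 to 0.28, adjusted p = 0.680). Mcm7 had 0.00 (-0.10 to 0.11, adjusted p = 0.964). As deposited, the 3 intervals reach at most 0.28 in size.

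**Figure D2:**
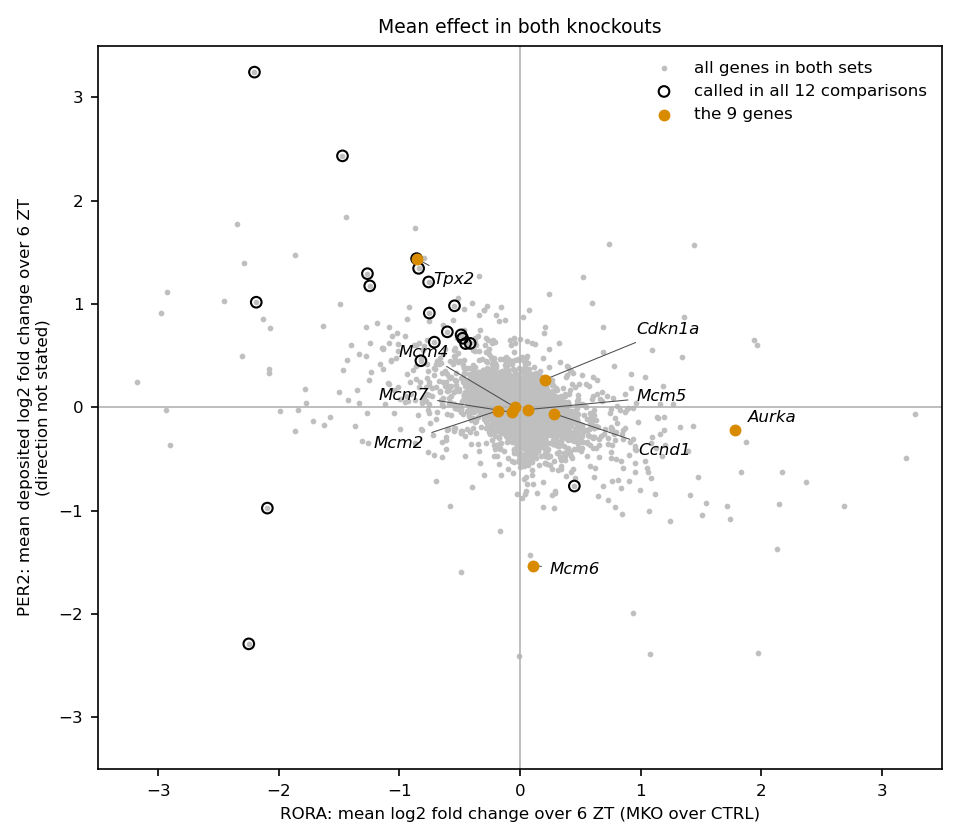
Mean log2 fold change over the 6 ZT in the PER2 set against that in the RORA set, for the genes in both sets (grey), the genes called in all 12 comparisons (open circles) and the 9 members (orange). Aurka lies far out on the RORA axis alone, Mcm6 on the PER2 axis alone and Tpx2 on both, and 7 of 11425 genes fall outside the axes. Aurka on the RORA axis and Tpx2 and Mcm6 on the PER2 axis were chosen with these values in view.

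The error behind a value differed between members. Among PER2 values Tpx2 (5.23 CPM) had a median error of 0.274, larger than in 96.6% of the 899 genes of like level, while Mcm7 (7.60 CPM) had 0.109, larger than in 23.5% of 1039 genes. For Aurka (10.9 CPM) that median was 0.320, against 0.119 in genes of like level. The RORA shares were 92.9% for Aurka, 91.7% for Tpx2, 96.6% for Ccnd1 and 97.5% for Cdkn1a, and 20.7% for Mcm7. The deposited RORA error belongs to a shrunken fold change and was larger where the fold change was larger for Cdkn1a (0.215 at ZT12 and 0.0965 at ZT16). Per kilobase, the order in the RORA set ran from Aurka at 108 through Cdkn1a at 42.2, Mcm2 at 29.7, Ccnd1 at 28.8, Mcm7 at 25.3, Mcm4 at 15.2, Tpx2 at 11.6 and Mcm6 at 8.62 to Mcm5 at 3.30 normalized counts. The PER2 order per kilobase began likewise with Aurka at 5.71 and Cdkn1a at 3.05 CPM and ended with Mcm6 at 0.292 and Mcm5 at 0.284. These levels pool MKO and CTRL libraries and come without a spread over samples, so neighbours in the order cannot be separated.

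**Figure D3:**
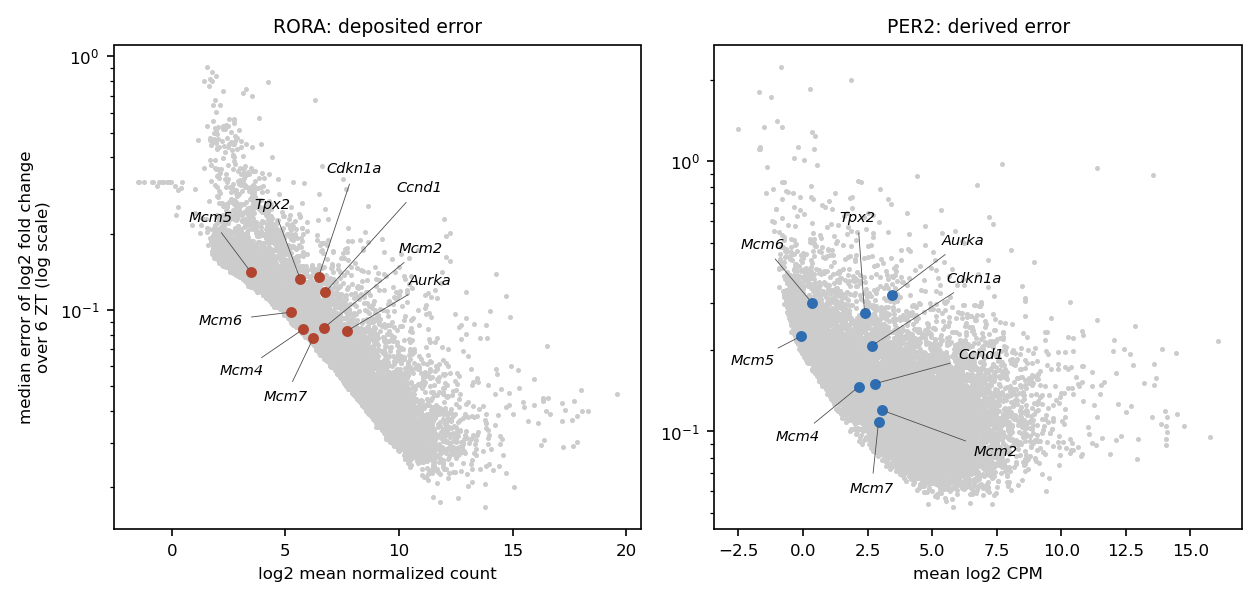
Median error of the log2 fold change over the 6 ZT (log scale) against mean level (log2) for all genes (grey) and the 9 members, with the RORA set on the left (deposited errors) and the PER2 set on the right (errors derived from the deposited statistic). Aurka and Tpx2 lie high among genes of their level in both sets, and Mcm7 lies low.

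The other genes of the cell cycle are described by list. A gene is counted here as passed when its mean over the 6 ZT had an adjusted p under 0.05, which 38.2% of genes reached in the RORA set and 21.6% in the PER2 set. Of 22 measured partners of Aurora A and spindle assembly genes, 5 rose and 4 fell in RORA MKO muscle, with a list median of -0.02 against 0.00 for all genes. They were led by Tacc2, a centrosomal coiled-coil protein (0.29 ± 0.08), Nedd1, which recruits gamma-tubulin (0.22 ± 0.05), and Ran, the GTPase that releases TPX2 near chromosomes (-0.19 ± 0.06). Of 23 such genes in the PER2 set 3 were positive and 2 negative, with a median of 0.04 against -0.02 for all genes. Fbxw7, the ubiquitin ligase subunit that degrades cyclin E and Aurora A, was at 0.24 ± 0.16, Rcc1, the exchange factor of Ran, at 0.17 ± 0.15, and the microtubule polymerase Ckap5 at 0.16 ± 0.14.

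Many mitotic genes were not listed in the tables. Of 42 mitosis genes, 22 were in the RORA set and 20 in the PER2 set, and Aurkb, Plk1, Cdk1, Ccnb1, Ccnb2, Bub1 and Foxm1 were in neither. Of those listed, 2 rose and 2 fell in RORA MKO muscle (median 0.05 against 0.00 for all genes). The proliferation marker Mki67 was at 0.31 ± 0.35, called at 1 ZT and at a mean normalized count of 9.80, against 206 for Aurka. Anln, a cytokinesis scaffold, was at -0.23 ± 0.13 and Ube2c, a ubiquitin-conjugating enzyme of mitotic exit, at -0.15 ± 0.12. The level of Ube2c was 166 normalized counts in the RORA set and 2340 CPM in the PER2 set, against 206 and 10.9 for Aurka. Whether both sets count the same transcript under that symbol was not tested. The levels given here for Mki67, Ube2c and Aurka are not scaled to transcript length and pool MKO and CTRL libraries. Aurka was higher in RORA MKO muscle, which raises its pooled RORA level. Among the 20 in the PER2 set 1 was positive and 1 negative (median -0.04 against -0.02 for all genes). These were Kif20a, a kinesin of cytokinesis (0.18 ± 0.15), and the spindle checkpoint kinase Bub1b (-0.52 ± 0.64).

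Among 20 measured genes of origin licensing and helicase activation other than the members, 3 rose and 3 fell in RORA MKO muscle (median 0.01 against 0.00 for all genes). Mcm8, a helicase of recombination, was at -0.25 ± 0.20, and the origin recognition subunits Orc3 and Orc5 were at 0.23 ± 0.12 and -0.21 ± 0.08. Of 17 in the PER2 set 2 were positive and none negative (median -0.02, as over all genes). They were the licensing inhibitor Gmnn (0.18 ± 0.16) and the helicase cofactor Cdc45 (0.17 ± 0.21). Their largest mean was 0.18, against -1.53 for Mcm6. Mcm6 was chosen with that value in view, so nothing is read from the gap. Of 28 DNA synthesis genes, 4 rose and 3 fell in RORA MKO muscle (median 0.04 against 0.00), led by the polymerase subunits Pola2 (0.30 ± 0.10) and Pold1 (0.13 ± 0.05) and the methyltransferase Dnmt1 (0.18 ± 0.06). Of 25 in the PER2 set, 3 were positive and 1 negative (median -0.06 against -0.02), led by Pold2 (0.18 ± 0.23), the ribonucleotide reductase subunit Rrm2b (0.16 ± 0.09) and the clamp loader subunit Rfc5 (0.13 ± 0.06).

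Around Ccnd1, 6 of 24 genes of G1 cyclins, CDKs, E2F and pocket proteins rose and 3 fell in RORA MKO muscle (median 0.05 against 0.00). The transcription factor E2f2 was at 0.43 ± 0.29, the pocket protein Rbl1 at 0.31 ± 0.20 and the DREAM complex subunit Lin52 at -0.15 ± 0.09. Of 23 in the PER2 set 2 were positive and 1 negative (median -0.03 against -0.02). These were Tfdp2, the E2F dimer partner (0.23 ± 0.12), the DREAM subunit Lin54 (0.17 ± 0.13) and the repressor E2f6 (-0.09 ± 0.04). Of the 5 other CDK inhibitors measured, 2 fell in RORA MKO muscle, Cdkn1c (-0.18 ± 0.09) and Cdkn1b (-0.15 ± 0.09), while Cdkn1a rose (list median -0.07 against 0.00). The PER2 set had 1 negative of 5, Cdkn1b at -0.17 ± 0.09 (list median -0.01 against -0.02). Of 22 p53 targets other than Cdkn1a, 6 rose and 3 fell in RORA MKO muscle (median 0.03 against 0.00). Perp, a p53 target at desmosomes, was at 0.68 ± 0.31, Sesn1, a brake on mTORC1, at 0.48 ± 0.15 and the stress sensor Gadd45a at 0.48 ± 0.19, and all 3 were called at each ZT. Of 19 in the PER2 set 3 were positive and 3 negative (median -0.01 against -0.02). Here Gadd45a was at -0.40 ± 0.21, Phlda3, an inhibitor of AKT, at -0.31 ± 0.32 and the ectodysplasin receptor Eda2r at 0.30 ± 0.43.

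**Figure D4:**
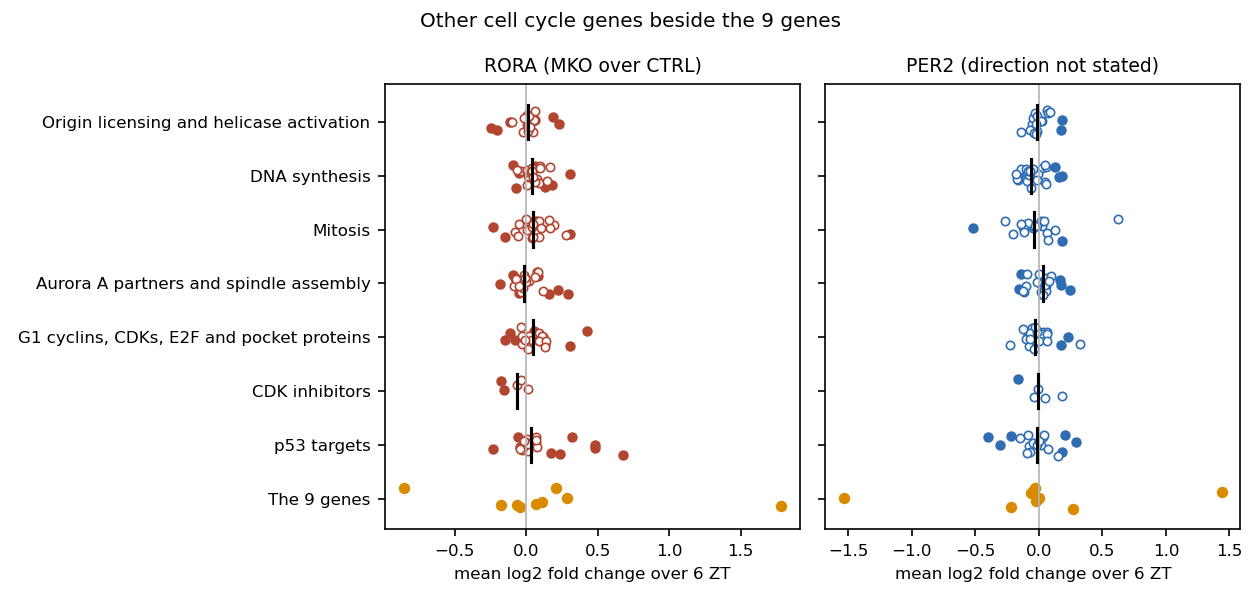
Mean log2 fold change over the 6 ZT for each measured gene of the 7 cell cycle lists (points) and for the 9 members (bottom row, orange), with filled points for genes past an adjusted p of 0.05 and a line at the list's median, for the RORA set and the PER2 set. List medians lie between -0.07 and 0.05 in the RORA set and between -0.06 and 0.04 in the PER2 set.

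Markers of cell types that could hold cycling cells are given for both sets, against the 38.2% and 21.6% of all genes that passed in the RORA and PER2 sets. In the RORA set 11 of 12 endothelial markers rose, by at most 0.19 (list median 0.15), and in the PER2 set 4 of 12 were negative (median -0.09). Of 12 satellite cell and regeneration markers, 3 rose and 1 fell in RORA MKO muscle (median 0.05), and 1 was negative in the PER2 set (median -0.01). Of 14 macrophage and leukocyte markers 1 rose in RORA MKO muscle, and none of 12 passed in the PER2 set (medians 0.04 and -0.09). Among 12 fibroblast markers 3 fell in RORA MKO muscle and none of 12 passed in the PER2 set (medians -0.00 and -0.07). Of 14 lymphocyte markers 3 were listed in the RORA set and 2 in the PER2 set. The immunoglobulin gene Ighm was at 2.13 ± 0.39 in the RORA set and -1.37 ± 0.54 in the PER2 set. The T cell gene Cd28 was at -1.44 ± 0.30 in the RORA set and 1.84 ± 0.49 in the PER2 set, and the third, the immunoglobulin gene Ighd, was at -0.05 ± 0.11 in the RORA set and did not pass. The defining markers Cd79a and Cd3e were not listed in either. Of 7 erythroid markers in the PER2 set 6 were negative and 1, Tfrc at 0.20 ± 0.19, was positive (list median -0.47). In the RORA set 1 rose and 1 fell of 7 (median 0.13). The tables give no summed level per group, and the part of these cells in the values of the 9 genes was not tested.

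Genes with the pattern most like each chosen member were found by Euclidean distance over the 12 log2 fold changes. These include the values with which the members were chosen. A gene with no change lies as far from a member as that member's own values are large. The median distance therefore largely restates the member's size, and nothing is read from it. The nearest to Aurka were Cuzd1 at 0.936, Stbd1 at 1.07, Rian at 1.42 and 2810032G03Rik at 1.59, where the median distance to all genes was 4.47. Their mean log2 fold changes in the RORA set were 1.87, 1.44, 1.33 and 1.39. Tpx2 was nearest to Musk, the receptor kinase of the neuromuscular junction, at 1.15, then Atp13a5 at 1.32, Syt9 at 1.40 and Slc30a2 at 1.51, with a median of 4.29. Musk had means of -0.84 ± 0.15 in the RORA set and 1.34 ± 0.18 in the PER2 set and was called in all 12 comparisons. Mcm6 had no gene as near: Fgf11 at 2.00, Tmem45b at 2.00, Tgtp1 at 2.05 and Adora1 at 2.09 came closest, with a median of 3.87. 

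The neighbouring genes on the chromosome were compared in gene order. There the 10 measured genes on either side of Aurka had RORA means between -0.17 and 0.47. The 2 next to it had the 2 highest means, with Fam210b at 0.47 ± 0.11 and Cstf1 at 0.22 ± 0.04, both called at all 6 ZT in the authors' deposited tables. None of the 20 was as large as Aurka. Aurka was chosen with its RORA values in view, and 1.26% of all genes there had a mean of at least 1 in size. Nothing is read from its size beside these neighbours. Around Tpx2 the RORA means lay between -0.22 and 0.18 and the PER2 means between -0.19 and 0.36. Mylk2, the skeletal muscle myosin light chain kinase next to it, was at the ends of these ranges, at -0.22 ± 0.14 in the RORA set and 0.36 ± 0.14 in the PER2 set. Its other neighbour Bcl2l1, an inhibitor of apoptosis, was at -0.02 ± 0.07 and -0.05 ± 0.24 in the RORA and PER2 sets, and passed in neither. Around Mcm6 the PER2 means lay between -0.31 and 4.94. Only Dpp10, 9 measured genes away, was as large as Mcm6 in size (4.94 ± 1.08, called at all 6 ZT), and the adjacent Ubxn4 and Dars were at -0.03 ± 0.09 and -0.08 ± 0.07. Tpx2 and Mcm6 were chosen with their PER2 values in view, and 0.494% of all genes there had a mean of at least 1 in size. Nothing is read from their size there either. The mean test was passed by 11 of the 20 genes around Mcm6 in the PER2 set, against 21.6% of all genes. In the RORA set 12 of 20 passed, against 38.2% of all genes, with means between -0.87 and 0.15. Around Aurka 5 of 20 passed in the RORA set and 7 of 20 in the PER2 set. The PER2 means around Aurka lay between -0.17 and 0.46, and 3 of the 20 were as large as Aurka in size. Around Tpx2 5 of 20 passed in the RORA set and 3 in the PER2 set. The part of gene position in these values was not tested.

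**Figure D5:**
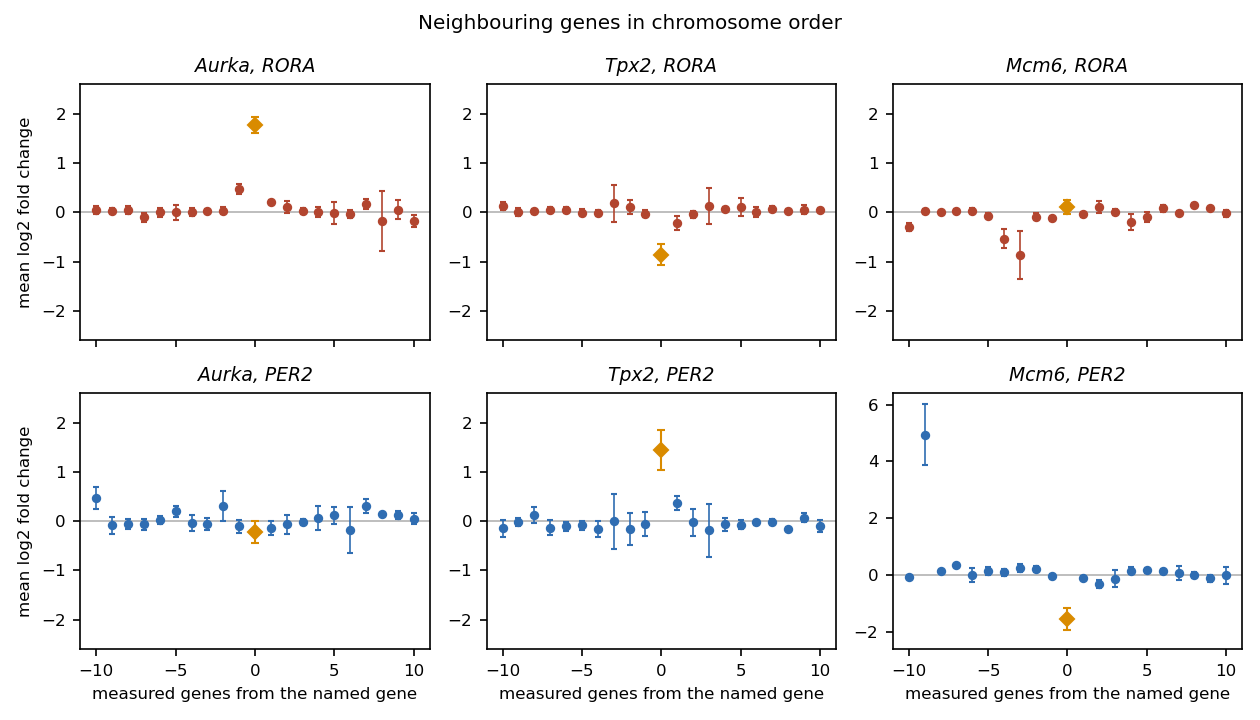
Mean log2 fold change over the 6 ZT for Aurka, Tpx2 and Mcm6 and the 10 measured genes on either side of each, by position in gene order, in the RORA and PER2 sets, with bars of 1 SD over ZT and a wider axis for Mcm6 in the PER2 set. Aurka and Tpx2 stand above or below all 20 neighbours in the sets where they were called, and for Mcm6 in the PER2 set 1 of 20 neighbours is as large in size. Aurka in the RORA set and Tpx2 and Mcm6 in the PER2 set were chosen with these values in view, so nothing is read from their size.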

How the data were processed

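Muscle RNA was prepared with a stranded poly-A kit and sequenced by Illumina, per the labels' protocols. The builds GRCm39 and mm9, and the tools bcl2fastq 2.20.0.422, Trimmomatic, STAR, DESeq2, R 4.1 and MultiQC, are named in the submitters' processing notes, without roles. The read counter and its strand setting are not stated in those sources.

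The authors deposited, for each ZT and knockout, 1 table of their own comparison over all genes. The RORA tables give a mean normalized count (a signal), the log2 of the fold change and a standard error, and raw and adjusted p-values, per the file headers. The median ratio of fold change over error to the z of the p-value was 0.779, so these fold changes are shrunken. In the deposited PER2 tables the headers name log2 values of fold change and CPM, a likelihood-ratio score, a p-value and an FDR. The PER2 error was derived by dividing the absolute log2 value by the square root of that score. Neither set holds values per library, so the depth of each sample is unknown here.

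Calls at a ZT are the authors' adjusted p under 0.05. The mean over ZT was tested by inverse-variance weighting (RORA) or Stouffer's sum of signed z (PER2), change with ZT by Cochran's Q (5 degrees of freedom), and the knockouts by the difference of weighted means, all with two-sided normal p-values and Benjamini-Hochberg adjustment over all genes. These p-values rest on the authors' fits. The plain mean ± SD over ZT is printed. Alternatives were limma 3.58.1, Stouffer or weighted means, leaving out each ZT, filters on level, stricter and looser thresholds, and the removal of a length and GC trend. Scripts ran in Python 3.11.15 (scipy 1.17.1) and R 4.3.3, and were tested on simulated data. Replicates are separate mice, per the labels' design text.

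The 9 members and the lists were chosen with earlier results of these data known. The text names all members, up to 3 passed genes of each list with the largest means, the 4 nearest genes and the neighbours of Aurka, Tpx2 and Mcm6; other neighbours, mitotic genes and markers were named after their values were seen. No symbol was given for 914 RORA IDs. Gene order, chromosomes, lengths and promoters are from GRCm38 annotation, which differs from the authors' builds, so no authors' coordinates are printed.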

Additional observations from a re-analysis of the deposited data

Results flagged for a closer look

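On the members, 4 results stood out. Cdkn1a at ZT8 in the PER2 set, at 0.94 in the authors' deposited tables, lay far from the other 5 ZT by Dixon's criterion, which chance meets in about 1 of 20 groups, and 18 groups of 6 ZT were looked at. Ccnd1 in the RORA set differed between ZT, with an adjusted p of 0.0419 by Cochran's Q. Mcm2 differed between the knockouts by -0.14, with both weighted means below 0 as deposited (-0.17 in the RORA set and -0.03 in the PER2 set), a call that limma on the plain means did not make (adjusted p = 0.0844). Ccnd1 differed between the knockouts by 0.28 as deposited (0.23 in the RORA set and -0.05 in the PER2 set), a call lost with the PER2 sign turned (adjusted p = 0.0901) and by limma (0.0700).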

How the results depend on the processing

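No paired analysis was possible because the tables hold the authors' comparisons and no values per library; for the same reason no library could be left out, and each ZT was left out instead. The values that changed sign or crossed the threshold follow. Aurka in the RORA set and Tpx2 and Mcm6 in the PER2 set had no test, kept their sign and moved by less than 1 SD over ZT. By Stouffer's sum in the RORA set, Mcm6 (0.11) and Mcm7 (-0.063, adjusted p = 0.0493) passed, as did 7519 of 14253 genes. On z values, the adjusted p of the change with ZT was 0.0461 for Tpx2 and 0.0590 for Ccnd1. Cdkn1a in the RORA set no longer passed without ZT0 (0.19), ZT4 (0.21), ZT12 (0.14) or ZT20 (0.22), nor in the PER2 set without ZT8 (0.13), by limma (0.27, adjusted p = 0.202) or without ZT4 and ZT12 (0.28, adjusted p = 0.0612). By limma on plain means, the differences of Mcm2 (-0.15, adjusted p = 0.0844) and Ccnd1 (0.35, adjusted p = 0.0700) did not pass. With the PER2 sign turned, the difference of Ccnd1 was 0.17 and no longer passed, and that of Cdkn1a turned to 0.39. Values near 0 that passed in no setting changed sign. In the PER2 set these were Mcm4 without ZT0 (-0.018), ZT4 (-0.0049), ZT12 (-0.051) or both ZT4 and ZT12 (-0.072) and with the trend removed (-0.045), Mcm5 without ZT4 (0.035) or ZT8 (0.047), and Ccnd1 without ZT4 (0.039) or both (0.045). The Mcm7 difference was -0.097 with the sign turned and -0.015 by limma. The causes were not tested. In the PER2 set 2792 genes passed the mean test, 1092 by limma and 1379 without ZT4 and ZT12. List counts moved with the method. By limma, between 0 and 2 genes of each list passed in the PER2 set. The length and GC trend was removed in an alternative chosen after seeing the data. Then 6 of 17 licensing, 7 of 25 DNA synthesis and 4 of 20 mitosis genes passed in the PER2 set. Over all genes of that set 3432 passed, against 2792 in the main test. By Stouffer's sum in the RORA set, 14 of 28 DNA synthesis, 11 of 22 mitosis and 15 of 24 G1 genes passed. So did 7519 of all 14253 genes, and nothing is read from these counts. Depth is unknown, so low members such as Mcm5 and Mcm6 cannot be given a detection limit.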
